A study of Mus musculus with 1279 samples.

Results

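The 10 genes described here encode vasoactive G protein-coupled receptors, and were taken by name from the count table of 46517 genes: the endothelin receptors Ednra and Ednrb, the angiotensin II receptor Agtr1a, the vasopressin receptor Avpr1a, the urotensin II receptor Uts2r, the sphingosine 1-phosphate receptors S1pr1, S1pr2 and S1pr3, the Gs-coupled adenosine receptor Adora2a and the prostacyclin receptor Ptgir. They were followed through 1279 single cells sorted from mouse hearts and sequenced with Smart-seq2, a plate-based method that reads whole transcripts. The authors had assigned each cell to 1 of 8 clusters. All cells came from male mice aged 10 to 20 weeks. Cells of the strain C57BL6 had been sorted with antibodies against PDGFRα and PDGFRβ. Per the methods, cells with CD31, a surface protein of endothelium, were kept out of the sorts of all strains. The other strains carried a fluorescent reporter and had been crossed back to C57BL6/J: PdgfrbGFP and Acta2GFP express GFP, and Cspg4dsRED expresses DsRed, under regulatory sequences of Pdgfrb, Acta2 and Cspg4. A reporter therefore selects the cells in which its promoter is active, elastase was used only for the isolation of Acta2GFP cells, and strain, sort and plate cannot be told apart.

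Receptors of this kind sit in the cell membrane and pass on signals of circulating or local mediators through G proteins. In vascular smooth muscle, receptors coupled to Gq or G12/13 (those for endothelin, angiotensin II, vasopressin and urotensin II) raise calcium or make the contractile filaments more sensitive to it and so favour contraction, whereas receptors coupled to Gs (Adora2a, Ptgir) raise cyclic AMP and favour relaxation. Pericytes, cells attached to capillaries, carry several of them, and fibroblasts respond to the same mediators with growth and matrix production.

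Clusters 1 to 5, called fibroblasts in the study, held 926 cells, and clusters 6 to 8, taken here as mural cells (smooth muscle cells and pericytes), held 353. The study regarded cluster 1 as likely valve interstitial cells. Median counts per cell ran from 167874 in cluster 8 to 349816 in cluster 4. Counts were summed per strain and cluster and given as CPM (read counts scaled to the same total for every sum), with the strain as the replicate, and sums of under 3 cells were left out of means. The summed CPM of 5 fibroblast markers was 10590 to 14489 in every sum of clusters 1 to 5, against 309 to 777 in cluster 7. Pericyte markers (Kcnj8, Abcc9, Rgs5) reached 15511 to 18516 CPM in 3 strains of cluster 8, and smooth muscle markers (Acta2, Myh11, Tagln, Cnn1) reached 10670 to 15717 CPM in cluster 7. Cluster 7 also held pericyte markers, at 2466 CPM in Cspg4dsRED, 2631 CPM in Acta2GFP and 8404 CPM in the 9 PdgfrbGFP cells, the last above the Acta2GFP cells of cluster 8. Valve interstitial markers summed to 6302 to 7531 CPM in cluster 1 and to at most 739 CPM in clusters 2 to 5. The 15 Acta2GFP cells of cluster 8 stood apart, with 4593 CPM of pericyte markers, 4033 CPM of smooth muscle markers and 3334 CPM of fibroblast markers (201.1 to 1170 and 960 to 1370 CPM for the last 2 lists in the other strains). The 3 C57BL6 cells of cluster 6 also stood apart, with 12491 CPM of fibroblast markers beside 11019 CPM of smooth muscle markers. Fewer cells of a type and less RNA per cell cannot be told apart in such sums.

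The endothelin receptors were highest in mural cells. Ednra, which mediates most of the constriction by endothelin-1, measured 878 CPM in C57BL6, 523 CPM in PdgfrbGFP, 1407 CPM in Cspg4dsRED and 1504 CPM in Acta2GFP within cluster 8. In cluster 7 it measured 345 CPM in PdgfrbGFP, 548 CPM in Cspg4dsRED and 920 CPM in Acta2GFP, so the strain ranges of both clusters overlapped. Within each of these 3 strains cluster 8 had the higher level, although the difference was not called (log2 fold change 0.89 ± 0.52, edgeR adjusted p = 0.88). Cluster 6 gave 50.5 CPM in Cspg4dsRED and 61 CPM in Acta2GFP, and 844 CPM in C57BL6, where 1 of the 3 cells held 99.9% of the counts. Among fibroblasts Ednra was highest in cluster 3, with 45.5 CPM in C57BL6, 210.9 CPM in PdgfrbGFP and 320 CPM in Acta2GFP, and lowest on average in cluster 5, with 4.57 and 12.96 CPM. The C57BL6 cells of cluster 3 gave 60.9 CPM on a plate with 55 of the cells and 7.20 CPM on a plate with 35. On the latter plate cluster 4 was higher, at 26.8 CPM. Acta2GFP gave the highest Ednra level of all strains in clusters 1, 2, 3 and 4, where it also gave the highest sum of smooth muscle markers (313 to 1447 CPM). Their part in the Ednra level was not tested. Ednra lies on chr8:77663031-77724464 (GRCm38, minus strand, 8 exon blocks), and 91 of its exon bases overlap 4933431K23Rik on the opposite strand, so that reads in this stretch cannot be assigned without strand.

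Ednrb, the other endothelin receptor, was highest in cluster 8 in the strains other than Acta2GFP. There it measured 374 CPM in C57BL6, 166.05 CPM in PdgfrbGFP and 694 CPM in Cspg4dsRED. The Acta2GFP cells gave 0 counts, where 3 counts would be 0.448 CPM. The 3 other strains thus lay far above Acta2GFP. In cluster 7 Ednrb measured 1.06 to 14.6 CPM, and in fibroblast sums of 3 or more cells at most 2.10 CPM. In cluster 6 it measured 80.3 CPM in C57BL6, where 1 of the 3 cells held all counts, 5.27 CPM in Cspg4dsRED and 0 in Acta2GFP. A count of Ednrb was found in 57.6% of cluster 8 cells in C57BL6 (19 of 33 cells), 26.9% in PdgfrbGFP (32 cells) and 75.9% in Cspg4dsRED (22 of 29), and in 0 to 38.5% of cells in the fibroblast sums. No fibroblast had more than 20 counts, whereas 48.5%, 11.8% and 62.1% of the same cluster 8 cells did.

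Agtr1a, the main receptor of angiotensin II in vessels, was highest in cluster 8. It measured 166.3 CPM in C57BL6, 200.1 CPM in PdgfrbGFP, 46.2 CPM in Cspg4dsRED and 51.5 CPM in Acta2GFP, and at most 5.86 CPM in cluster 7 and 1.08 CPM in cluster 6. All strains of cluster 8 were therefore above all strains of clusters 6 and 7. Fibroblasts of cluster 2 (17.7 to 40.2 CPM) and cluster 5 (19.6 and 47.9 CPM) carried it too, as did Acta2GFP in cluster 3 (41.96 CPM, against 2.83 CPM in C57BL6 and 0.463 CPM in PdgfrbGFP), and the highest of these levels lay between those of Cspg4dsRED and Acta2GFP in cluster 8. Its paralog Agtr1b averaged at most 0.183 CPM in any cluster; reads that fit both genes could have been lost or split by the counting.

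Avpr1a is the vasopressin receptor of vascular muscle. In cluster 8 it measured 173.4 CPM in C57BL6, 112.2 CPM in PdgfrbGFP, 49.3 CPM in Cspg4dsRED and 0 counts in Acta2GFP. It was almost absent from cluster 7 (at most 0.491 CPM) and had no count in the 39 cells of cluster 6. In cluster 2 it measured 28.04 to 78.8 CPM in the 4 strains, and in cluster 5 35.4 CPM in C57BL6 and 30.3 CPM in PdgfrbGFP. Cluster 3 gave 36.2 CPM in C57BL6, and 1.85 and 3.30 CPM in PdgfrbGFP and Acta2GFP. Lower levels were found in cluster 4, at 0.462 to 11.3 CPM, and in cluster 1, at 0 to 0.507 CPM. The levels rested on few cells: pooled over strains, over 20 counts were found in 10.96% of cluster 2 cells and 8.67% of cluster 8 cells.

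Uts2r, the receptor of the constrictor peptide urotensin II, was nearly confined to cluster 1 in all strains. It measured 81.6 CPM in C57BL6, 116.6 CPM in PdgfrbGFP, 162.9 CPM in Cspg4dsRED and 122.7 CPM in Acta2GFP. The highest value in any other sum was 1.10 CPM (cluster 3, Acta2GFP). Only 24.3% of the 70 cells in cluster 1 had over 20 counts and no cell of another cluster did. The 20 cells with most counts held 97.97% of the 2908 counts of the gene. In Acta2GFP low counts were more spread, with 1 or more in 18.4%, 28.6% and 27.5% of cells of clusters 2, 3 and 4, against at most 2.86% of cells in the C57BL6 and PdgfrbGFP sums of clusters 2 to 5. After thinning every cell to 50000 counts the Acta2GFP shares were 2.63%, 14.3% and 2.50%. Acta2GFP cells also had more genes with a count (median 6388 per cell, against 3358 to 4265 in the other strains). The part of this in the shares was not tested.

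**Figure D1:**
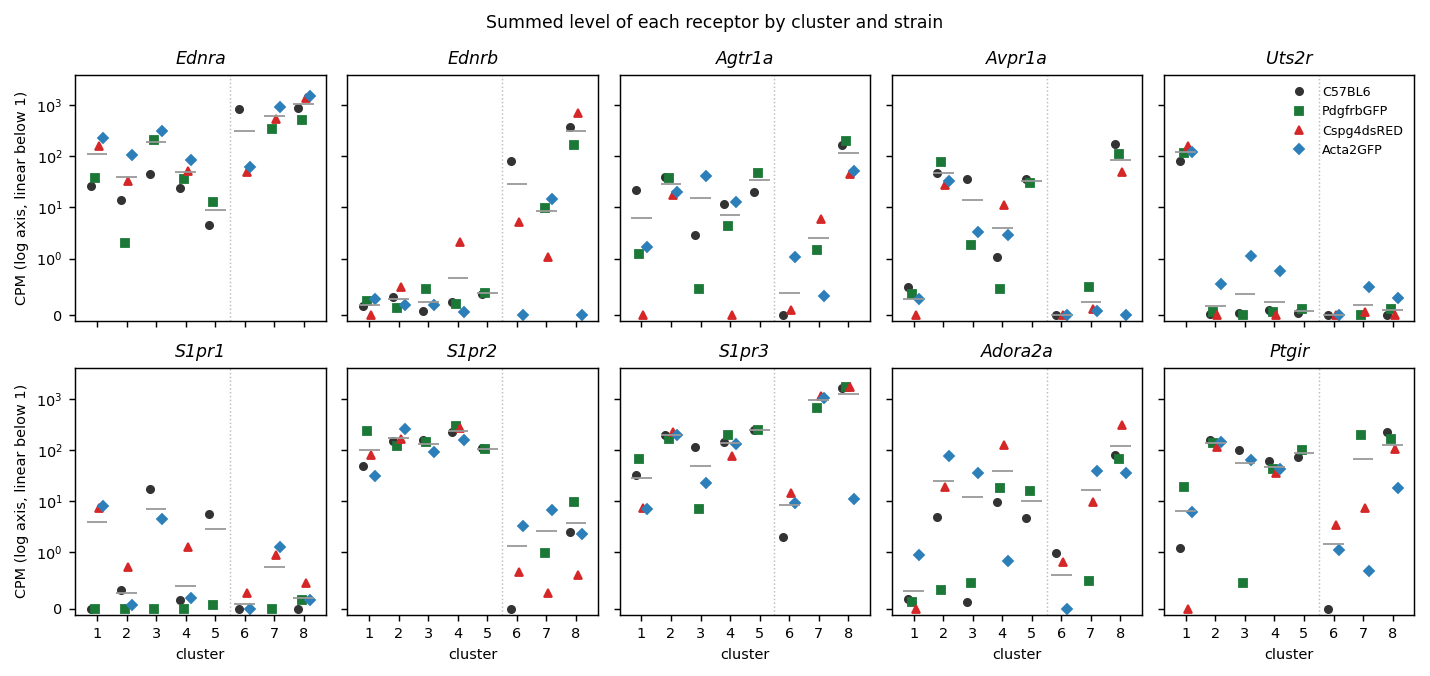
Level of each receptor (CPM of counts summed per strain and cluster, log axis that is linear below 1 CPM) in clusters 1 to 8, with 1 point per strain with 3 or more cells, a bar at the mean over strains and a dotted line between fibroblast clusters 1 to 5 and mural clusters 6 to 8. Uts2r stands at 81.6 to 162.9 CPM in cluster 1 and near 0 elsewhere, and S1pr3 in cluster 8 has 3 strains at 1616 to 1698 CPM and Acta2GFP at 10.9 CPM.

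The receptors of sphingosine 1-phosphate, a lipid carried in blood plasma, had different patterns. S1pr3, which couples to Gi, Gq and G12/13, measured 1616 CPM in C57BL6, 1698 CPM in PdgfrbGFP and 1696 CPM in Cspg4dsRED within cluster 8. In Acta2GFP it measured 10.9 CPM, although the cells of the same strain in cluster 7 gave 1027 CPM. Cluster 7 otherwise measured 657 CPM in PdgfrbGFP and 1126 CPM in Cspg4dsRED. Cluster 6 was low in all strains, with 1.96 CPM in C57BL6, 9.18 CPM in Acta2GFP and 14.1 CPM in Cspg4dsRED. Fibroblasts lay mostly between, at 165.7 to 226.6 CPM in cluster 2, 74.7 to 199.1 CPM in cluster 4, and 250.6 and 243.2 CPM in cluster 5, but at 7.07 to 67.01 CPM in cluster 1 and 6.94 to 112.6 CPM in cluster 3.

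S1pr2, a receptor of the same lipid that acts mainly through G12/13, had the reverse pattern. It measured 117.1 to 259.5 CPM in cluster 2, 92.2 to 156.8 CPM in cluster 3, 155.6 to 292.1 CPM in cluster 4, and 108.7 and 103.8 CPM in cluster 5. Mural sums were at most 9.38 CPM (cluster 8, PdgfrbGFP, where 1 cell held 67.8% of the counts). Cluster 1 was spread more widely, at 48.8 CPM in C57BL6, 239.7 CPM in PdgfrbGFP, 78.98 CPM in Cspg4dsRED and 30.8 CPM in Acta2GFP. S1pr1, the Gi-coupled receptor known best from endothelium, was low throughout, with 1202 counts in 81 of 1279 cells and 94.3% of the counts in 20 cells. Its highest sum of 3 or more cells was 16.8 CPM (cluster 3, C57BL6), and a single Cspg4dsRED cell of cluster 3 held 316 counts. The summed CPM of 7 endothelial markers was 2.31 to 277.5 CPM in these sums, although the sorts removed cells with CD31, and their part in the S1pr1 counts was not tested.

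Adora2a and Ptgir are the receptors that raise cyclic AMP. Adora2a measured 79.4 CPM in C57BL6, 66.8 CPM in PdgfrbGFP, 303 CPM in Cspg4dsRED and 35.2 CPM in Acta2GFP within cluster 8, and 0.491 to 39.2 CPM in cluster 7. In fibroblasts it ranged from 0 to 126.3 CPM, and the strain with the highest level differed between clusters (Acta2GFP in cluster 2 with 75.4 CPM, Cspg4dsRED in cluster 4 with 126.3 CPM). Ptgir was steadiest in cluster 2, at 158.8 CPM in C57BL6, 137.3 CPM in PdgfrbGFP, 116.1 CPM in Cspg4dsRED and 144.8 CPM in Acta2GFP. Cluster 8 gave 219.6, 162.5, 101.996 and 17.8 CPM in the same order of strains. Cluster 7 gave 192.8 CPM in PdgfrbGFP, where 1 of 9 cells held 99.5% of the counts, and 7.31 and 0.669 CPM in Cspg4dsRED and Acta2GFP.

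**Figure D2:**
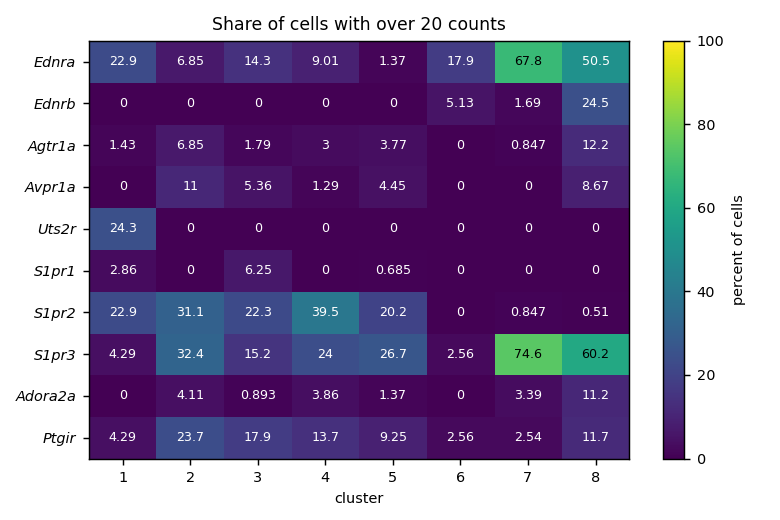
Percentage of cells with over 20 counts of each receptor (rows) in each cluster (columns), pooled over strains, with the colour scale from 0 to 100%. S1pr3 passes this level in 74.6% and 60.2% of cells in clusters 7 and 8, and Uts2r in 24.3% of cluster 1 and in no cell of another cluster.

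Levels of the 10 receptors were compared with each other per kilobase of exon, as CPM per kilobase. In cluster 8 the order was S1pr3 (281.2 ± 186.1, SD, n = 4 strains), Ednra (196.8 ± 84.2), Ednrb (72.3 ± 70.1), Agtr1a (41.7 ± 28.3), Adora2a (39.6 ± 40.1), Ptgir (37.6 ± 25.9) and Avpr1a (31.4 ± 28.2), and the other 3 were at 0.46 or less. Apart from Ednra and Ednrb, each neighbouring pair among the first 7 differed by less than the larger of its SDs. In cluster 7 S1pr3 (209.9 ± 55.4, n = 3) and Ednra (110.3 ± 53.2) led, Ptgir followed at 20.1 ± 32.7, and the remaining 7 were at 5.37 or less. The place of Ptgir rested on 1 PdgfrbGFP cell, and in Cspg4dsRED and Acta2GFP it was below Adora2a (2.19 against 3.14 and 0.201 against 12.8 CPM per kilobase). In cluster 6 Ednra led at 58.2 ± 83.2 (n = 3). The size of this mean rested on the C57BL6 cells, but not the lead. By CPM, Ednra was also highest in Cspg4dsRED (50.5, against 14.1 for S1pr3) and in Acta2GFP (61, against 9.18). Uts2r led in cluster 1 at 71.02 ± 19.6 (n = 4), above Ednra at 20.5 ± 17.9 and S1pr2 at 12.49 ± 11.98. In cluster 2 S1pr3 (43.9 ± 5.59) and Ptgir (41.8 ± 5.34) did not differ beyond their spread, and S1pr2 followed at 21.7 ± 7.64. In cluster 4 S1pr3 (30.3 ± 11.4) and S1pr2 (29.3 ± 7.42) were equally close. Per kilobase of the longest transcript instead, Ednra (297.3) came before S1pr3 (281.2) in cluster 8, and S1pr2 (36.5) before S1pr3 (30.3) in cluster 4.

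The promoters of Uts2r, highest in cluster 1, and of S1pr3 and Avpr1a are shown to give the sequence context of these genes. S1pr3 and Avpr1a were highest in cluster 8 on average, but not in Acta2GFP. A promoter was found for 7 of the 10 genes among the RefSeq promoters of GRCm38.p6, and the 250 bases before the start site are printed 5′ to 3′ on the strand of the gene. They are chr13:51408368-51408617 (plus strand) for S1pr3, chr11:121160021-121160270 (plus strand) for Uts2r and chr10:122448249-122448498 (plus strand) for Avpr1a. Capitals mark the matches of the searched motifs.
S1pr3: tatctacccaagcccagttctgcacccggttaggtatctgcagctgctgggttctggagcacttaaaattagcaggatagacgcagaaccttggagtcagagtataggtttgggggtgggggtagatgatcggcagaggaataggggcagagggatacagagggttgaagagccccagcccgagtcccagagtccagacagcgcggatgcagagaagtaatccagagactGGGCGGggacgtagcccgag
Uts2r: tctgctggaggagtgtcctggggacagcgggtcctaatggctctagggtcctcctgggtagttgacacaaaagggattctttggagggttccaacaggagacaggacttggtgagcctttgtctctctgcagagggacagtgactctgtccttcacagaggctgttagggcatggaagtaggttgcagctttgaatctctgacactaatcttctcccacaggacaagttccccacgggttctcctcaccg
Avpr1a: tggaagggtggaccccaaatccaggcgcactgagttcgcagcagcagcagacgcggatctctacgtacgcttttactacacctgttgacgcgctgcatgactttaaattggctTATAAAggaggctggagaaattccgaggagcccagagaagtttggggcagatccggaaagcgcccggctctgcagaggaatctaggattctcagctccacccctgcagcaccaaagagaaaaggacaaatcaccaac
Both strands were searched for 4 motifs, and no match overlapped another. The GC box, GGGCGG, was found at 20 to 15 bases before the start site of S1pr3 and in 2 places before that of Ptgir, and occurs in 32.7% of 32851 promoters. The TATA box, TATAAA, was found once before the start site of Avpr1a, near the middle of the printed window and farther upstream than a TATA box usually lies, and occurs in 12.4% of promoters. The core of RBPJ sites, TGGGAA, occurs in 21.6% of promoters and the CArG box in 1.47%, and neither was found in the 7 windows. None of the 4 motifs was found in the window of Uts2r.

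The first comparison asked how fibroblasts differ from mural cells. Of the 10 receptors, S1pr2 and Uts2r were higher in fibroblasts and Ednra, Ednrb and S1pr3 were lower (edgeR quasi-likelihood test, adjusted p under 0.05 over 15117 genes). Over all genes tested, 3.47% were called higher and 2.45% lower. The sides of all 5 receptors did not overlap between strains, which held for 9.06% of all genes in the higher and 5.63% in the lower direction. Their mural sums differ in make-up between strains, since those of C57BL6 and PdgfrbGFP were mostly cluster 8 and that of Cspg4dsRED was mostly clusters 7 and 6.

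S1pr2 measured 154.98 CPM in fibroblasts of C57BL6, 173.6 CPM in PdgfrbGFP, 188.7 CPM in Cspg4dsRED and 154.6 CPM in Acta2GFP. Its mural levels were 2.08, 8.55, 0.452 and 4.88 CPM in the same order. The difference had this direction in all 4 strains, with a log2 fold change of 5.33 ± 0.81 (SE) and an edgeR adjusted p of 0.00434. S1pr3 measured 178.4, 188.2, 121.9 and 123.5 CPM in fibroblasts. The mural levels of 1447, 1595, 894 and 603 CPM were higher in all 4 strains (log2 fold change -2.91 ± 0.40, edgeR adjusted p = 0.0023). Thus 2 receptors of 1 ligand differed in opposite directions, both beyond the spread between strains.

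Ednra measured 19 CPM in C57BL6 fibroblasts, 25.7 CPM in PdgfrbGFP, 48.8 CPM in Cspg4dsRED and 149.3 CPM in Acta2GFP. The mural levels were 882, 505, 558 and 1033 CPM, each higher than that of the fibroblasts (log2 fold change -3.66 ± 0.63, edgeR adjusted p = 0.00803). Ednrb measured 0.277, 0.276, 2.84 and 0.165 CPM in fibroblasts, against 329, 150.6, 132.8 and 8.49 CPM on the mural side (log2 fold change -7.74 ± 1.37, edgeR adjusted p = 0.00932). Its call was lost without C57BL6 (adjusted p = 0.0671) and without PdgfrbGFP (0.0613). Uts2r measured 2.96, 13.1, 12.5 and 27.4 CPM in fibroblasts, nearly all from cluster 1, and 0 to 0.390 CPM in mural cells (log2 fold change 6.66 ± 1.42, edgeR adjusted p = 0.0211), and lost its call without any 1 of the strains (adjusted p of 0.0521 when C57BL6 was left out, 0.111 for PdgfrbGFP, 0.076 for Cspg4dsRED and 0.0623 for Acta2GFP). Without the Acta2GFP cells of cluster 8, or without the C57BL6 cells of cluster 6, 5 receptors were called in each case.

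The other 5 did not pass this test, with log2 fold changes of -2.36 ± 0.89 for Agtr1a, 4.41 ± 1.69 for S1pr1, -1.09 ± 0.69 for Adora2a, -1.64 ± 1.31 for Avpr1a and -0.37 ± 0.83 for Ptgir (edgeR adjusted p from 0.19 to 0.898). DESeq2 called Agtr1a (adjusted p = 0.0369) and S1pr1 (0.0199), and limma-voom called Adora2a (0.0318). Agtr1a had lower fibroblast than mural levels in all 4 strains, at 6.82 to 27.3 CPM against 11.7 to 180.4 CPM, and the groups overlapped. Avpr1a and Ptgir were lower in fibroblasts of C57BL6 and PdgfrbGFP and higher in those of Cspg4dsRED and Acta2GFP.

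**Figure D3:**
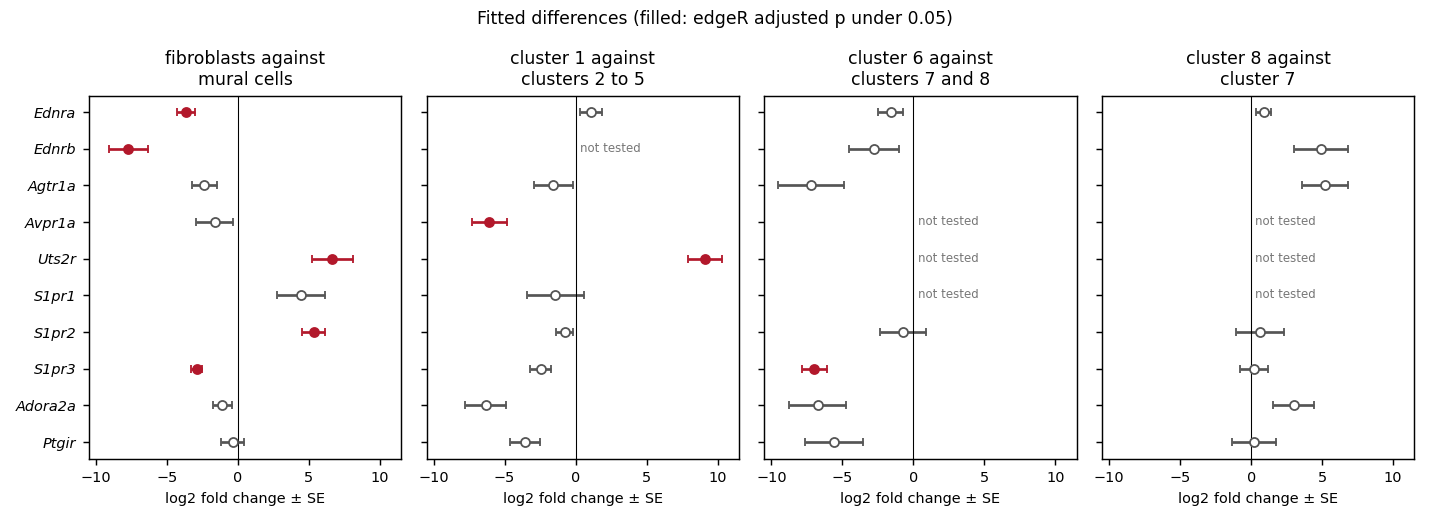
Log2 fold change (x axis, ± SE, first-named side over the second) of each receptor in 4 comparisons of sums per strain, with filled points for an edgeR adjusted p under 0.05. In the first panel Ednra, Ednrb and S1pr3 lie at -3.66, -7.74 and -2.91 and S1pr2 and Uts2r at 5.33 and 6.66.

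The next comparison set cluster 1 against the other fibroblasts. Of the 9 receptors that passed the filter on low counts, Uts2r was higher and Avpr1a lower in cluster 1 (edgeR adjusted p under 0.05 over 13201 genes), where 0.561% of all genes tested were called higher and 0.773% lower. Uts2r, at 81.6 to 162.9 CPM in cluster 1, measured 0.04998 CPM in clusters 2 to 5 of C57BL6, 0.0777 CPM in PdgfrbGFP, 0 in Cspg4dsRED and 0.713 CPM in Acta2GFP. It was higher in 4 of 4 strains with no overlap (log2 fold change 9.11 ± 1.20, edgeR adjusted p = 0.00382), although the adjusted p was 0.0501 without PdgfrbGFP. Avpr1a, at 0.507, 0.372, 0 and 0.283 CPM in cluster 1 and 28.9, 31.9, 17.2 and 15.7 CPM in clusters 2 to 5, was lower in 4 of 4 strains (log2 fold change -6.07 ± 1.23, edgeR adjusted p = 0.0416). Its call was lost with strain as a block (adjusted p = 0.138) and whenever 1 strain was left out (0.253 for C57BL6, 0.192 for PdgfrbGFP, 0.0807 for Cspg4dsRED and 0.165 for Acta2GFP).

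Adora2a, Ptgir and S1pr3 were also lower in cluster 1 in 4 of 4 strains without overlap of the sides, but missed the threshold, with log2 fold changes of -6.35 ± 1.44, -3.55 ± 1.06 and -2.47 ± 0.73 (edgeR adjusted p of 0.0564, 0.174 and 0.168). Of all genes tested, 6.76% were lower and 2.61% higher without overlap. DESeq2 called Adora2a, Ptgir and S1pr3 (adjusted p of 5.17e-06, 0.00469 and 0.0225), and limma-voom called Ptgir (0.0187). Adora2a also passed edgeR with C57BL6 plates as separate units (adjusted p = 0.0318), and S1pr3 passed limma on means of cell CPM (0.0354). Adora2a measured 0 to 0.943 CPM against 5.45 to 69.7 CPM, and Ptgir 0 to 18.8 CPM against 65.8 to 95.9 CPM. The C57BL6 cells of cluster 1 gave 2.57 CPM of S1pr3 on a plate with 16 of the cells and 210.8 CPM on a plate with 3. Ednra, S1pr2, Agtr1a and S1pr1 did not pass the test either (edgeR adjusted p from 0.881 to 0.99).

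Among clusters 2 to 5, 0 of the 9 receptors tested were called in edgeR (0.301% of 16629 genes were), and 3 reached 0.05 before adjustment, as did 8.02% of all genes. They were Ednra (p = 0.0126, adjusted p = 0.408), S1pr3 (p = 0.0324, adjusted p = 0.546) and Avpr1a (p = 0.0468, adjusted p = 0.616), for which only 2 to 4 strain sums per cluster were available. DESeq2 called Ednra (adjusted p = 0.0443). The Ednra means ran from 8.76 CPM in cluster 5 to 192.3 CPM in cluster 3, and the Avpr1a means from 3.95 CPM in cluster 4 to 46.7 CPM in cluster 2.

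Cluster 6 was then compared with the other mural cells. S1pr3 was the only receptor called among the 7 tested (edgeR adjusted p under 0.05), where 0.0330% of 12117 genes were called. It measured 1.96, 14.1 and 9.18 CPM in cluster 6 and 1640, 1281 and 662 CPM in clusters 7 and 8 of C57BL6, Cspg4dsRED and Acta2GFP. It was lower in 3 of 3 strains without overlap (log2 fold change -6.97 ± 0.88, edgeR adjusted p = 0.0186). The call held without the Acta2GFP cells of cluster 8. It was lost without Cspg4dsRED, which held 33 of the 39 cells (adjusted p = 0.409), and in limma-voom (0.388). Ednra was lower in Cspg4dsRED (50.5 against 781 CPM) and Acta2GFP (61 against 1129 CPM), but level in C57BL6 (844 against 887 CPM), and passed the test once strain was a block (adjusted p of 0.0149, against 0.994) or C57BL6 was left out (0.0467). Agtr1a, Adora2a and Ptgir were lower in 3 of 3 strains with no overlap and did not pass (edgeR adjusted p of 0.46, 0.453 and 0.596), where 14.4% of all genes were lower and 3.28% higher without overlap. DESeq2 called Adora2a (adjusted p = 0.000692) and Ptgir (0.0163). Fibroblast markers summed to 3223 CPM in Cspg4dsRED and 3108 CPM in Acta2GFP of cluster 6 (309 to 777 CPM in cluster 7 and 960 to 3334 CPM in cluster 8). Cardiac muscle markers summed to 697 and 1521 CPM there and to 3.92 CPM in C57BL6 (215.3 to 603 CPM in cluster 7 and 63.04 to 290.3 CPM in cluster 8). Their list includes Actc1, which the paper names among the genes enriched in a small population of heart smooth muscle cells, so the sum is not specific to cardiac muscle cells. Pericyte markers summed to between 105.3 CPM (Acta2GFP) and 272.3 CPM (Cspg4dsRED) in the strains of cluster 6, below every sum of clusters 7 (2466 to 8404 CPM) and 8 (4593 to 18516 CPM). The part of these 3 lists in the differences was not tested.

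Between cluster 8 and cluster 7, 0 of the 7 receptors tested were called in edgeR, where 0.194% of 11867 genes were called, and 2 had an unadjusted p under 0.05, as did 6.88% of all genes. DESeq2 called Agtr1a (adjusted p = 0.00403). Agtr1a was higher in cluster 8 in 3 of 3 strains without overlap, as were 9.08% of all genes, with 5.91% lower (200.1 against 1.47 CPM in PdgfrbGFP, 46.2 against 5.86 CPM in Cspg4dsRED and 51.5 against 0.335 CPM in Acta2GFP), with a log2 fold change of 5.2 ± 1.61 and an edgeR adjusted p of 0.331. Ednrb had a log2 fold change of 4.95 ± 1.90 (edgeR adjusted p = 0.537), and was higher in cluster 8 of PdgfrbGFP (166.05 against 9.81 CPM) and Cspg4dsRED (694 against 1.06 CPM) and lower in that of Acta2GFP (0 against 14.6 CPM). Its edgeR adjusted p was 0.00195 without Acta2GFP and 0.00413 without the filter on low counts. S1pr3 also went in opposite directions, at 1698 against 657 CPM in PdgfrbGFP, 1696 against 1126 CPM in Cspg4dsRED and 10.9 against 1027 CPM in Acta2GFP. The part of the pericyte markers in cluster 7, highest in PdgfrbGFP, in these differences was not tested.

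The cells of cluster 8 showed how these sums arose. The median S1pr3 level per cell was 1483 CPM in C57BL6 (n = 33), 593 CPM in PdgfrbGFP, 1819 CPM in Cspg4dsRED (n = 29) and 13.7 CPM in Acta2GFP (n = 15), where the highest cell had 49.9 CPM. No Acta2GFP cell reached the lower quartile of C57BL6 (1072 CPM) or Cspg4dsRED (241.1 CPM), but that of PdgfrbGFP was 20.5 CPM, so that some PdgfrbGFP cells lay within the Acta2GFP range. Ednra in the same Acta2GFP cells had a median of 1488 CPM and the lowest cell had 49.8 CPM, so low S1pr3 went with Ednra levels as high as in the other strains. In PdgfrbGFP, with a median Ednra of 9.03 CPM and an upper quartile of 710 CPM, cells with many counts lay beside cells with few or none. C57BL6 was spread too, with quartiles of 4.05 and 1182 CPM. Cluster 8 had the lowest median depth, so few counts do not show that a cell lacks the receptor. The marker sums of these Acta2GFP cells are given above, and their part in the S1pr3 and Ednrb levels was not tested.

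**Figure D4:**
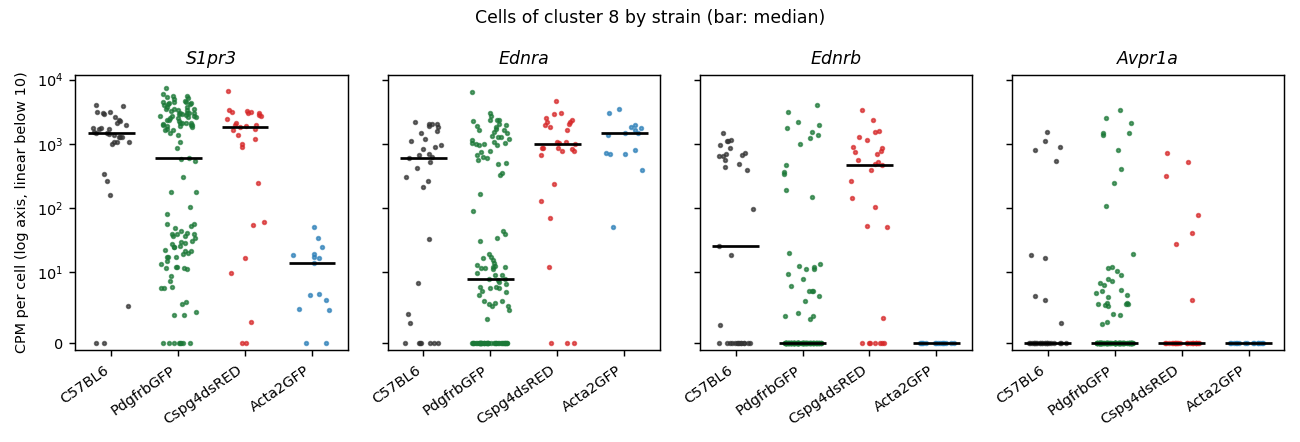
Level per cell (CPM, log axis that is linear below 10 CPM) of S1pr3, Ednra, Ednrb and Avpr1a in cluster 8, with 1 point per cell and a bar at the median of each strain. Acta2GFP cells have a median of 13.7 CPM of S1pr3 and 1488 CPM of Ednra, and no count of Ednrb or Avpr1a.

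A cell of cluster 8 had 1 or more counts of 3 of the 10 receptors in the median, and up to 7. The median was also 3 in clusters 1, 2, 4 and 7, and it was 2 in clusters 3, 5 and 6. Pooled over strains, of which PdgfrbGFP gave most cells, over 20 counts were found in 60.2% of cluster 8 cells for S1pr3, 50.5% for Ednra, 24.5% for Ednrb and at most 12.2% for any other receptor. As means over the 4 strains, Ednra came first with 68.9% ± 26.5 (SD), before S1pr3 with 56.2% ± 40.4 and Ednrb with 30.6% ± 29.4, and the highest of the others was Adora2a with 17.001%. In cluster 8 of C57BL6, 18 of the 19 cells with Ednrb also had Ednra, and all 19 had S1pr3. In Cspg4dsRED 20 of 22 and in PdgfrbGFP 21 of 32 Ednrb cells had Ednra, that is 90.9% and 65.6%, against 89.7% and 66.4% of all cells there. In C57BL6 it was 94.7%, against 78.8% of all cells. All 10 C57BL6 cells and all 35 PdgfrbGFP cells with Avpr1a had S1pr3, a receptor found in 93.9% and 93.3% of all cells of those sums. Presence here means 1 or more counts, and the levels did not always go together. The C57BL6 cell with most Avpr1a had 1504 CPM of it and 5.25 CPM of S1pr3, and that of PdgfrbGFP had 3355 and 49.1 CPM. In other cells both were high, as at 811 and 3887 CPM in 1 C57BL6 cell.

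Of 46 other vasoactive receptors, 16 could be tested between fibroblasts and mural cells, 4 were higher in fibroblasts and 2 lower (edgeR adjusted p under 0.05). Over all genes tested, 3.47% were called higher and 2.45% lower. The median log2 fold change of the 16 was 0.60, against -0.02 for all genes tested. Among the higher ones were Adora1, the Gi-coupled adenosine receptor (23.2 ± 14.97 against 0.203 ± 0.110 CPM, SD, n = 4 strains), Vipr2, a receptor of vasoactive intestinal peptide (29.2 ± 17.1 against 0.366 ± 0.554 CPM), and F2r, the thrombin receptor PAR1 (405 ± 167.6 against 122.4 ± 20.5 CPM). The lower ones were the α-adrenoceptors Adra2b (0.282 ± 0.178 against 73.2 ± 51.7 CPM) and Adra1d (0.00496 ± 0.00655 against 7.21 ± 7.91 CPM). Without PdgfrbGFP or without Acta2GFP 2 of these receptors were called. In the other 4 comparisons none of the 12 to 19 tested was called by edgeR.

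The 3 other receptors with the highest mean CPM in each cluster are named next, a choice that does not allow for the length of the genes. F2r was among them in every cluster, with means from 57.1 ± 64.3 CPM in cluster 7 (n = 3) to 694 ± 381 CPM in cluster 1 (n = 4). Ptgfr, the prostaglandin F receptor, was named in cluster 1 (180.2 ± 60.8 CPM), cluster 2 (71.8 ± 66.7 CPM), cluster 4 (46.8 ± 51 CPM) and cluster 5 (82.1 ± 9.88 CPM, n = 2). Ptger4, a prostaglandin E receptor, was named in cluster 1 (48.4 ± 22.9 CPM) and cluster 5 (40.1 ± 4.64 CPM). Adcyap1r1, the receptor of PACAP, was named in cluster 2 (104.6 ± 53.5 CPM) and in cluster 7, where it measured 443 CPM in PdgfrbGFP and 11.95 and 14.97 CPM in Cspg4dsRED and Acta2GFP. Calcrl, part of the CGRP and adrenomedullin receptors, was named in cluster 3 (76.4 ± 53.2 CPM, n = 3) and cluster 4 (45.4 ± 21.2 CPM). The thromboxane receptor Tbxa2r was named in cluster 3 (156.4 ± 126.8 CPM) and cluster 6 (141.4 ± 139.99 CPM, n = 3). Npy1r, a receptor of neuropeptide Y, measured 154.6 CPM in PdgfrbGFP, 347 CPM in Cspg4dsRED and 281.8 CPM in Acta2GFP of cluster 7. In cluster 6, where it was named too, the Cspg4dsRED cells gave 257.6 CPM, those of Acta2GFP 9.18 CPM and those of C57BL6 no count, so that the strain ranges of both clusters overlapped. Adra2b (90.4 ± 61.9 CPM) and Ptger2 (66.3 ± 60.8 CPM), a prostaglandin E receptor, were named in cluster 8.

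Of the 25 ligand genes and ligand enzymes, 18 were tested between fibroblasts and mural cells, of which 4 were higher in fibroblasts and 2 lower (median log2 fold change 0.81). The shares called over all genes tested were 3.47% higher and 2.45% lower. Ace, which makes angiotensin II, measured 352 ± 53.5 CPM in fibroblasts, against 18.4 ± 28.3 CPM in mural cells (log2 fold change 4.27 ± 0.94, edgeR adjusted p = 0.0244), whereas Enpep, which breaks angiotensins down, was lower in fibroblasts (log2 fold change -3.16 ± 0.59, edgeR adjusted p = 0.0114). Nt5e, which makes adenosine, was at 19.4 ± 10.01 against 0.251 ± 0.163 CPM, and Ptgs2, a cyclooxygenase that supplies prostanoid synthesis, at 97.8 ± 15.8 against 4.24 ± 5.71 CPM. Plpp1, a lipid phosphatase, was higher in fibroblasts as well. Without C57BL6 or without PdgfrbGFP 1 gene of the list was called, and without Acta2GFP 3. Between clusters 8 and 7, 0.194% of all genes tested were called. Among them was Entpd1, which breaks down extracellular ATP, lower in cluster 8 (4.13 ± 4.02 against 861 ± 25.7 CPM, n = 3, edgeR adjusted p = 0.0124). The call was lost without PdgfrbGFP and with a minimum of 10 cells per sum, where 0 of 13 genes of the list were called.

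Of 34 genes of G protein signalling and contraction control, 33 were tested between fibroblasts and mural cells, 7 were lower in fibroblasts and 0 higher (median log2 fold change -0.50). Of all genes tested, 2.45% were called lower and 3.47% higher. Mylk, the kinase of myosin light chain, measured 15.4 ± 12.6 CPM in fibroblasts, against 1256 ± 1078 CPM in mural cells, and the adenylyl cyclases Adcy5 and Adcy6 measured 3.13 ± 3.4 against 131.2 ± 101.4 CPM and 12.2 ± 7.21 against 129.1 ± 44.2 CPM. Ppp1r12a, the targeting subunit of myosin phosphatase, measured 32.7 ± 10.8 against 370 ± 311 CPM. Prkg1, Ppp1r14a and Rock1 were called in the same direction, and 0 of the 32 or 33 tested were called in the other comparisons. Without Acta2GFP 3 of the 33 were called, and without C57BL6 or Cspg4dsRED 4.

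**Figure D5:**
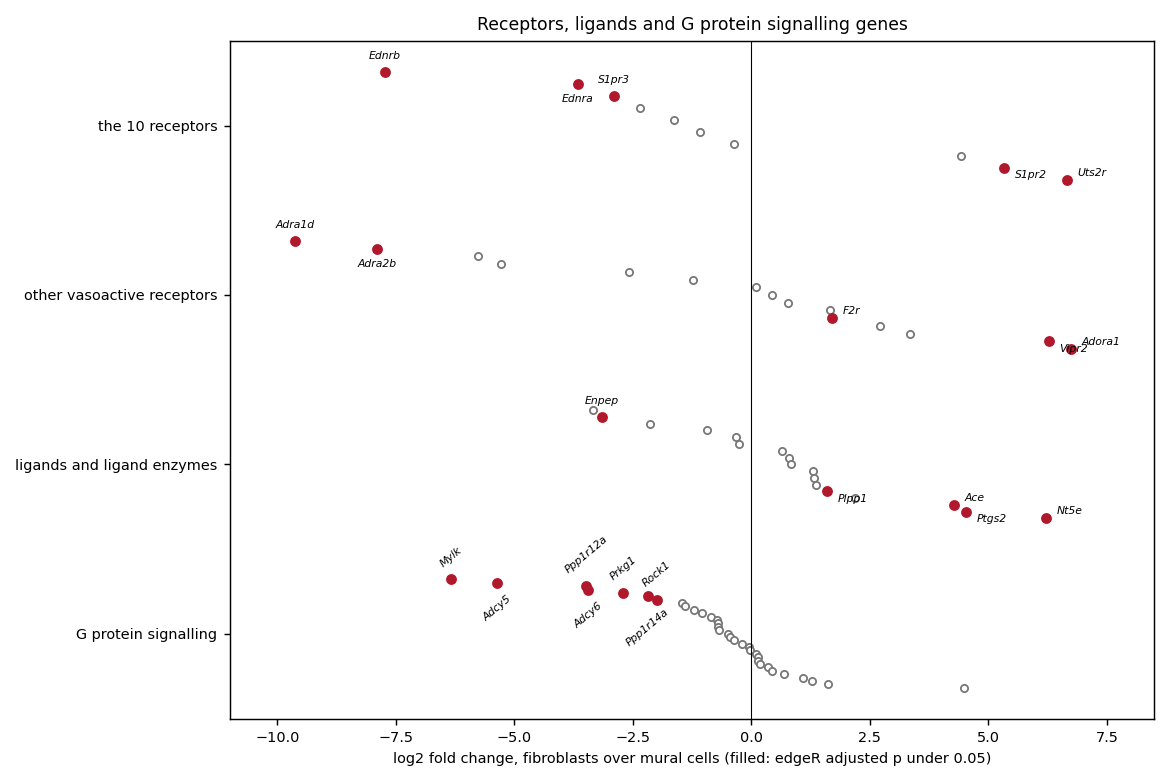
Log2 fold change of fibroblasts over mural cells (x axis) for the tested genes of 4 lists (rows, genes sorted within a list), with filled, named points for an edgeR adjusted p under 0.05 and without the genes not reported here. The 7 called genes of G protein signalling all lie to the left, from Mylk to Rock1.

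The genes with the most similar pattern were sought among 10326 genes by Pearson correlation of log2(CPM + 1) over 27 strain and cluster sums, which share libraries and depth between genes. For Uts2r they were Cyp26a1 (r = 0.98), Scx (0.97) and Cilp2 (0.95), and for S1pr2 Gm16897 (0.96), Adamtsl2 (0.96) and Il33 (0.95). Ednra was followed most closely by 4933431K23Rik (0.97), the gene that overlaps it on the opposite strand, and then by Tinagl1 (0.82) and Trac (0.79). Ednrb was closest to Tmem273 (0.85), Slc16a12 (0.84) and P2ry14 (0.84), S1pr3 to Ifi203 (0.79), As3mt (0.78) and Elp5 (0.78), and Ptgir to Gpsm3 (0.90), Unc93b1 (0.89) and Phlda1 (0.84). Agtr1a and Avpr1a had Spaar as the closest gene (0.86 each), followed by Dennd2a (0.82) and Sipa1 (0.81) for Agtr1a and by Cldn15 (0.84) and Irf8 (0.83) for Avpr1a. Adora2a was closest to Ggt5 (0.78), Adgrf5 (0.77) and Mndal (0.77), and S1pr1 to Aox3 (0.74), Adamts19 (0.62) and Akap10 (0.58). Among the receptors themselves the highest correlation was that of Avpr1a with Ptgir (0.76).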

How the data were processed

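Hearts of male mice were dissociated, single cells sorted into plates and libraries made with Smart-seq2 (no molecular identifiers). The authors deposited raw read counts per gene, made per the methods from 50-base reads mapped with TopHat2 to GRCm38 and counted with featureCounts. The annotation release and strand setting are not given in the sources used here. They had removed low-quality cells, cells lacking both Pdgfra and Pdgfrb, and those that looked endothelial or immune, and clustered the rest with pagoda2 on these counts, so cluster labels and receptor counts are not independent. No doublet caller was run here.

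Spike-ins (92 ERCC features, 1.82% of counts) were left out. Names, coordinates and exon lengths came from GENCODE M21 by Ensembl identifier (46005 of 46517 genes matched). The labels name no animal. Cells were therefore summed per strain (C57BL6 from 3 plates, each reporter strain from 1), and p-values measure the spread between strains. Totals per cell were 46268 to 1302397 (median 274504), and 2 cells below 50000 were left out of thinning. A floor of 3 counts per sum and all shares cover counting error only.

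Comparisons used the edgeR 4.0.16 quasi-likelihood F test (R 4.3.3) with TMM and filterByExpr (minimum count 10), on sums of 3 or more cells, with Benjamini-Hochberg adjustment over all genes tested and a threshold of 0.05. DESeq2 1.42.0, limma 3.58.1 and the other alternatives are given at the end. The tests were checked on simulated data. Both sides of a reporter strain came from 1 plate. The deviations of the sides correlated within strains at 0.023 to 0.191, over 0.1 in 8 of 14 cases.

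The receptors were always named. Of each list, genes with an adjusted p under 0.05 were named (at most the 4 with the largest fold change per direction), with the 3 other receptors of highest mean CPM per cluster and the 3 genes most similar to each receptor. The receptors and lists were chosen with earlier results of these data known. Results of a few genes of the lists are not reported here, although the counts per list include them.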

Additional observations from a re-analysis of the deposited data

Results flagged for a closer look

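In 13 of 70 groups of 4 strains, 1 strain stood apart from the other 3 by Dixon's 95% criterion, which sets its gap to the nearest strain against the whole range. Chance would flag about 1 in 20 groups if the values were normally distributed and the groups independent. These levels are bounded at 0 and often rest on few cells, and several groups share cells. The number flagged can therefore not be set against that rate. In cluster 8, S1pr3 of Acta2GFP was low at 10.9 CPM (1616 to 1698 CPM in the others), and Adora2a of Cspg4dsRED was high at 303.3 CPM (35.25 to 79.44 CPM). In cluster 4, Cspg4dsRED was high for Adora2a at 126.3 CPM (0.8484 to 17.97 CPM), for Ednrb at 2.098 CPM (0.06526 to 0.2428 CPM) and for S1pr1 at 1.259 CPM (0 to 0.1958 CPM). Agtr1a of C57BL6 in cluster 1 reached 22.48 CPM (0 to 1.698 CPM), with all of it in 1 cell.

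Over all fibroblasts Cspg4dsRED stood apart for Ednrb at 2.843 CPM (0.1651 to 0.2772 CPM) and S1pr1 at 31.56 CPM (0.02761 to 4.29 CPM), and over clusters 2 to 5 at 3.079 CPM (0.132 to 0.2812 CPM) and 33.56 CPM (0.03108 to 4.449 CPM). These values contain the single Cspg4dsRED cell of cluster 3, which held 316 S1pr1 counts and 17 of the 30 Ednrb counts. Uts2r of Acta2GFP was high at 0.5463 CPM in cluster 2 (0 to 0.06524 CPM), 0.7831 CPM in cluster 4 (0 to 0.08828 CPM) and 0.713 CPM over clusters 2 to 5 (0 to 0.07769 CPM).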

How the results depend on the processing

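Of the log2 fold changes of the receptors under the alternatives, 425 kept direction and side of the threshold, 17 passed it, 16 lost it and 23 changed sign. With the longest transcript as the length, 15 of 80 ranks of receptors within clusters moved. With means of cell CPM, 10 levels moved by more than the SD between strains and 70 did not. After thinning to 50000 counts, 33 shares of cells moved by more than their SD and 47 did not. With over 20 counts in place of 1 or more, 52 shares moved and 28 did not. The causes were not tested. Counting depth limits the rare receptors, and a floor of 3 counts per sum reached 3.70 CPM in the 3 Cspg4dsRED cells of cluster 1.

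The percentage of all genes called between fibroblasts and mural cells was 5.93, against 12.9 with DESeq2, 9.55 with limma-voom, 9.22 with means of cell CPM and 2.66 to 3.91 when a strain was left out, and 5 receptors were called, against 3 to 4 when a strain was left out. For cluster 1 it was 1.33, against 5.30 with DESeq2, 2.93 with limma-voom, 2.36 with means of cell CPM, 0.748 with a minimum of 10 cells and 0.201 to 0.748 when a strain was left out. There 2 receptors were called, against 5 with DESeq2, 1 without the filter, 1 with the minimum of 10 cells and 0 to 1 when a strain was left out. Among clusters 2 to 5 the percentage was 0.301, against 2.95 with DESeq2, 1.08 with limma-voom, 0.284 of a larger number of genes without the filter, 0.511 with means of cell CPM, 0.884 with C57BL6 plates as separate units and 0 to 0.133 when a strain was left out, and DESeq2 called 1 receptor. For cluster 6 it was 0.0330, against 2.99 with DESeq2, 0.479 with limma-voom, 0.418 without the filter, 0.117 without the Acta2GFP cells of cluster 8 (an alternative chosen after seeing the data) and 0 to 0.495 when a strain was left out. There 1 receptor was called, against 3 with DESeq2, 0 with limma-voom and 0 to 2 when a strain was left out. For cluster 8 against cluster 7 it was 0.194, against 3.37 with DESeq2, 1.31 with limma-voom, 0.379 with DESeq2 size factors (12 higher and 33 lower, against 10 and 13), 0.855 without the filter, 0.379 with means of cell CPM, 0 with a minimum of 10 cells and 0 to 0.987 when a strain was left out. DESeq2 called 1 receptor there, as did the fit without the filter, and 0 to 1 were called when a strain was left out.

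With strain as a replicate block the percentage was 0.742 for cluster 1, 0.883 for cluster 6 and 0.691 for cluster 8, and 1, 2 and 0 receptors were called. The main fit left this block out and so treated both sides of a strain as independent, although those of a reporter strain came from 1 plate. The correlation of both sides within a strain was over 0.1 in 8 of 14 cases, and in 13 of 14 it was higher than with any other strain. The choice matters for the calls of Avpr1a in cluster 1 and Ednra in cluster 6, as given above. The block turned Ptgir to 0.57 between fibroblasts and mural cells and S1pr3 to -0.71 between clusters 8 and 7.

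The other changes of sign concerned values that passed no test. Between fibroblasts and mural cells Avpr1a became 1.52 with limma-voom and 0.07 with means of cell CPM, and Ptgir 1.31, 0.62 and, without C57BL6, 0.01 (-0.71 to 0.01 when a strain was left out). In cluster 1 S1pr1 became 0.56 with the minimum of 10 cells, 0.08 with means of cell CPM and -2.74 to 0.56 when a strain was left out (0.56 without Cspg4dsRED). Between clusters 8 and 7 S1pr2 became -1.18 with the minimum of 10 cells, -0.02 with means of cell CPM and -1.18 (without PdgfrbGFP) to 2.91 when a strain was left out, and Ptgir -0.58 with DESeq2 and its size factors and -0.36 (without Cspg4dsRED) to 3.88. S1pr3 became -0.07 with DESeq2 and its size factors, -0.82 with limma-voom, -0.37 with the minimum of 10 cells, -1.21 with means of cell CPM and -0.37 to 0.78 when a strain was left out (-0.37 without PdgfrbGFP and -0.08 without Cspg4dsRED). DESeq2 size factors moved the median of all genes from -0.32 to -0.17 for cluster 6 and from 0.18 to 0.04 for cluster 8.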
